A study of Oryctolagus cuniculus with 6 samples.

Results

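Circular RNAs (circRNAs) whose host gene gave several of them were examined in hypertrophic scars of the rabbit ear. The authors' circRNA table was grouped by gene identifier, rows without a gene were left out, and every circRNA of a gene with 3 or more listed circRNAs was kept. That left 369 circRNAs of 106 host genes, out of 1694 circRNAs of 1184 hosts. The table carries 103 of these hosts under a symbol, and 3 (ENSOCUG00000012987, ENSOCUG00000008716 and ENSOCUG00000004696) under an identifier alone. The number of listed circRNAs per host was 7 in 3 hosts, 6 in 3, 5 in 6, 4 in 18 and 3 in the remaining 76.

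The animals were 6 female New Zealand White rabbits with full-thickness wounds on the ventral side of both ears. In the ADSC-Exos arm (3 rabbits) the wounds were given 100 µg, in 2 ml, of exosomes, vesicles that cells release, here from stem cells of adipose tissue. In the control arm (3 rabbits) they received saline. Scar tissue of both arms was taken on day 21 and its total RNA was sequenced, 1 library per rabbit. The series text limits application to the first days after injury, but the labels give 21 days as the length of treatment, which leaves the schedule unclear. The rabbits' age, the stem cells' donor and the pooling of wounds within a library are not given in the sources used here.

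A circRNA forms when the spliceosome joins the end of an exon back to the start of the same exon or of an exon upstream, a reaction called back-splicing. The closed ring has no free end for exonucleases, and such rings tend to outlast the linear transcript of their gene. Genes with many exons and long introns often give several rings, which can share one of the joined ends. Each ring is recognised in sequencing only by reads that cross its own back-splice junction, so junction counts are usually low, and fewer cells of a type cannot be told apart from fewer rings per cell in whole scar tissue.

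The rings ranged from 220 to 252100 bases of genome between their joined ends. Their median span was 11817 bases (interquartile range 4451 to 23416), against 8109 bases over the table and 9577 bases in hosts with exactly 2 listed circRNAs. The longest was a ring of PLXDC2 on chromosome 16 from 40894265 to 41146364, which the table classes as exon_intron. Spans over 100 kb were rare, at 5 of the 369, and 24 were under 1 kb. The table classed 353 of them as exonic (95.7%, against 94.8% over the table), 15 as exon_intron and 1 as intronic. The intronic ring belongs to ASH1L, a histone methyltransferase gene, and lies on chromosome 13 from 37198944 to 37199464. Members came from 20 chromosomes, and chromosome 13 held 48 of them. Coordinates are as the authors' table gives them. Neither genome build nor strand is given there, so which joined end is the splice donor cannot be told.

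Many of these rings were built on a common end. A start or an end was shared with another ring of the same host by 167 circRNAs of 66 hosts (62.3% of hosts). Of the 504 pairs of rings within hosts, 10.9% shared a start and 9.92% an end. In hosts with exactly 2 listed circRNAs the shares were 15.3% and 18.3% of 235 pairs. Sharing was thus not more frequent per pair here, and hosts with more rings hold more pairs. Of 319 distinct starts 46 were used by more than 1 ring, and of 323 distinct ends 42 were. At least 3 rings met at a single start in NRDC (start 114865179 on chromosome 13, 4 rings), VAV3 (start 56410148 on chromosome 13, 3 rings) and RAVER2 (start 101612852 on chromosome 13, 3 rings). They met at a single end in PARN (end 7663863 on chromosome 6), DENND4A (end 6593775 on chromosome 17) and EML6 (end 131212733 on chromosome 2), with 3 rings each. In KTN1, the gene of the kinesin-binding protein kinectin, a pair of exon_intron rings on chromosome 17 began at 74329237 and closed at 74333256 and 74333264.

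**Figure D1:**
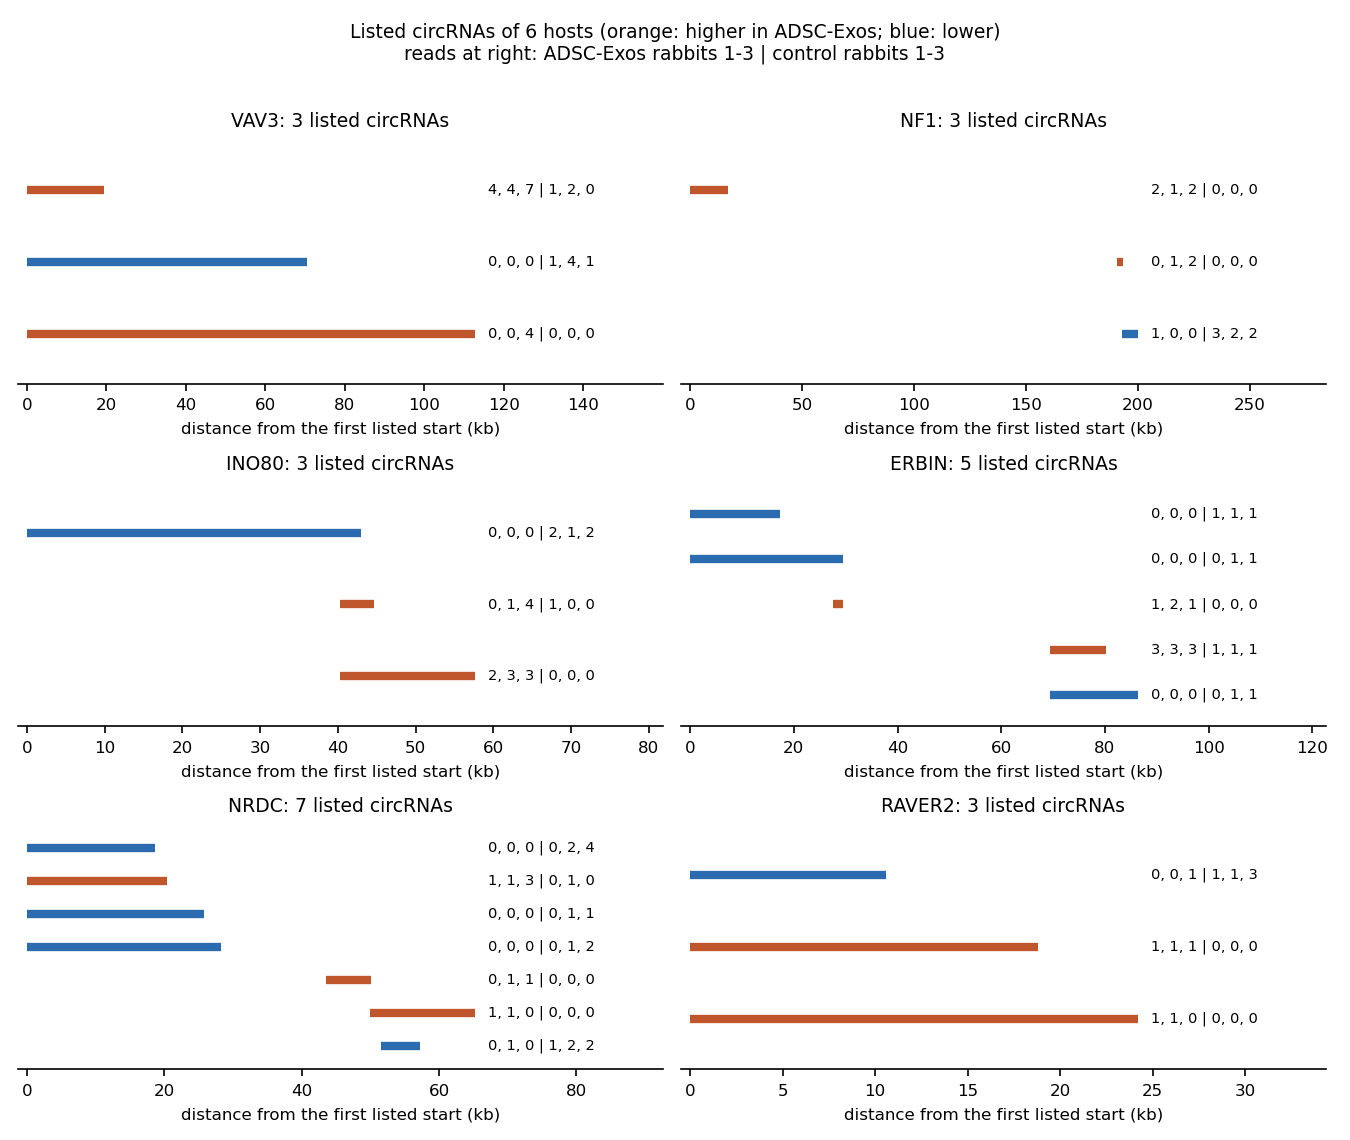
Each horizontal bar is 1 listed circRNA of VAV3, NF1, INO80, ERBIN, NRDC or RAVER2, drawn to scale by its distance in kb from the first listed start of that host. Orange bars were higher in ADSC-Exos and blue bars lower, and the figures beside a bar are its reads in ADSC-Exos rabbits 1 to 3 and then control rabbits 1 to 3. Rings of both colours leave the same start in VAV3, NRDC, RAVER2 and ERBIN, whereas the rings of NF1 have no common start.

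These rings were counted from few reads. The deposited log2 values were turned back into whole reads. All 369 rings together had 1581 of the 7297 reads in listed circRNAs, with a median of 3 reads per ring over the 6 rabbits, the same median as over the table. Exactly 2 reads supported 123 rings (33.3%), at most 5 reads supported 285 (77.2%), and 10 or more reads supported 26. Reads came from 2 rabbits in 244 rings and from all 6 rabbits in 4. The 23 rings with reads in a single rabbit had at least 4 reads each. A count of 0 allows up to 3 reads in a rabbit. That limit, like the intervals on read ratios given further on, covers counting error only.

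ADSC-Exos rabbit 1 had the fewest reads in listed circRNAs, 856. The other ADSC-Exos rabbits had 1592 and 1529, and the controls 1103, 1071 and 1146. These are reads in a selected list and do not give library depth. In the authors' mRNA table the size factor of ADSC-Exos rabbit 1, 1.01, lay within the control range of 0.890 to 1.18. Its reads in the mRNAs listed there, 86844, were again the fewest. The other ADSC-Exos rabbits had 223668 and 224554, and the controls 100758, 137608 and 155547. ADSC-Exos rabbit 1 also had the lower circRNA size factor, 0.454 against 0.510 in each other rabbit. Rings of these hosts held 184, 362 and 329 reads in ADSC-Exos rabbits 1 to 3 and 227, 223 and 256 in control rabbits 1 to 3. The means were 292 ± 94.7 reads in ADSC-Exos and 235 ± 18.0 in control scars (SD, n = 3 each; exact permutation test, two-sided, p = 0.40). Rings with at least 1 read numbered 117, 183 and 169 in ADSC-Exos and 137, 135 and 146 in control rabbits, so the control values all lay inside the ADSC-Exos range. Their difference was 17.0 rings, and 36.7 without ADSC-Exos rabbit 1 (exact permutation p = 0.40 and 0.10).

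As a share of all listed circRNA reads, the arms were close. These hosts held 21.5%, 22.7% and 21.5% of reads in ADSC-Exos rabbits and 20.6%, 20.8% and 22.3% in control rabbits. Wilson 95% intervals of single rabbits were wide beside those gaps, such as 20.7% to 24.9% in ADSC-Exos rabbit 2 and 18.3% to 23.1% in control rabbit 1. The mean shares were 21.9% ± 0.71 and 21.2% ± 0.95 (SD, n = 3 each; exact permutation p = 0.40). The read-weighted median span was 10698 ± 2449 bases in ADSC-Exos and 10743 ± 1820 in control scars (exact permutation p = 1.0).

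The leading ring of a host was defined as the one with the most reads over all 6 rabbits, so every host has 1. It held a median of 45.9% of its host's reads, from 22.2% in NRDC to 85.3%. In the 76 hosts with 3 rings its share cannot be under 33.3%, and the median host had 14 reads in all. Summed over hosts, the leading rings took 47.8%, 49.4% and 50.8% of reads in ADSC-Exos and 46.7%, 45.7% and 47.7% in control rabbits. The arms did not overlap, but only just, at 47.8% in the lowest ADSC-Exos and 47.7% in the highest control rabbit. The difference of 2.65 percentage points had an exact permutation p of 0.10, the smallest that 3 against 3 rabbits allow, and 0.51 after Benjamini-Hochberg adjustment over the 9 per-rabbit measures compared. The leading ring was chosen on the reads of all 6 rabbits. ADSC-Exos rabbits 2 and 3 gave the most of these reads (362 and 329) and ADSC-Exos rabbit 1 the fewest (184).

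**Figure D2:**
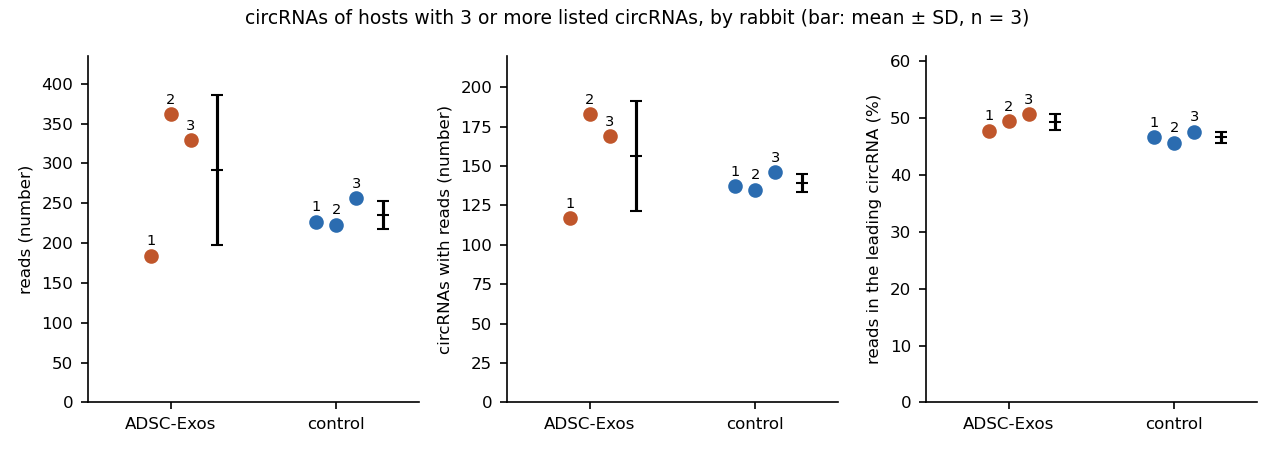
Points are single rabbits, numbered as in the labels, with ADSC-Exos left of control in each panel; bars give the mean ± SD of 3 rabbits. The panels show reads in the 369 rings, how many of those rings had reads, and the percentage of reads in the leading ring of each host. ADSC-Exos rabbit 1 lies below every control rabbit in the first 2 panels, and the arms are separate only in the third.

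The rings split between the arms much as the whole table did. By the difference of mean log2 values, ADSC-Exos minus control, 201 rings were higher (54.5%) and 168 lower, against 53.8% and 46.2% over the whole table. Reads occurred only in ADSC-Exos rabbits for 162 rings and only in control rabbits for 131, where the table as a whole has 43.8% and 38.4%. Reads in both arms were found for 76 rings (20.6%, against 17.8% over the table). The arms did not overlap for 41 rings (11.1%), which is near the 12% of all listed circRNAs. Every listed circRNA had been selected by the authors for an absolute log2 difference over 1 in these same rabbits, so a small difference could not appear.

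Which rabbits carried the one-arm rings was uneven in ADSC-Exos scars. Of the 162 rings read only there, 68 (42.0%) had reads in rabbits 2 and 3 but not 1, 33 in rabbits 1 and 3, 31 in rabbits 1 and 2, and 15 in all 3. Of the 131 read only in control scars, 40 had reads in rabbits 2 and 3, 39 in 1 and 3, 33 in 1 and 2, and 11 in all 3. Rabbits 2 and 3 of the ADSC-Exos arm had more reads in listed circRNAs (1592 and 1529) than rabbit 1 (856). Among listed circRNAs of all other hosts that were read only in ADSC-Exos rabbits the share carried by rabbits 2 and 3 alone was 40.5%, much like the 42.0% here.

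**Figure D3:**
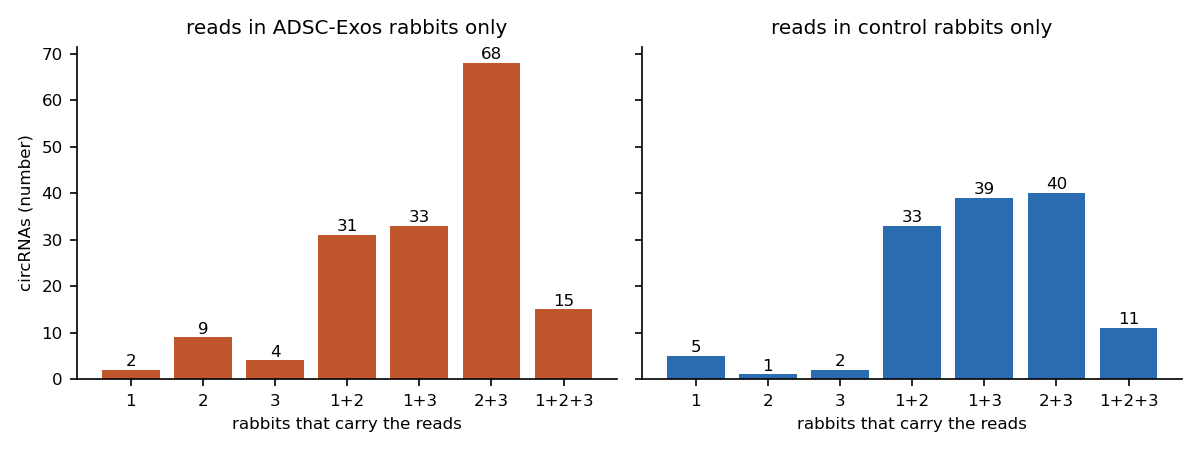
Bars count the rings read in 1 arm only, by the rabbits that carried the reads (ADSC-Exos at left, 162 rings; control at right, 131 rings). In ADSC-Exos the pair of rabbits 2 and 3 stands out with 68 rings, while the 3 control pairs range from 33 to 40.

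Most hosts held rings of both directions. Both higher and lower rings were listed in 75 of the 106 hosts (70.8%), all rings were higher in 18 and all lower in 13. Hosts with exactly 2 listed circRNAs had both directions in 49.8%, and more rings give more room for both. Rings of one host were higher or lower together in 272 of 504 pairs (54.0%). Pairs that shared an end did so in 66.0% of 50, pairs that shared a start in 52.7% of 55, and pairs that shared neither in 52.6% of 399. One ring lay inside the other in 159 pairs, which had the same direction in 61.0%. In hosts with exactly 2 listed circRNAs the gap between ends and starts was smaller. Pairs there had the same direction in 58.1% of 43 with a shared end and 55.6% of 36 with a shared start. For nested pairs there it was 53.1% of 96. These are descriptions of pairs from the same 6 libraries, and the authors' selection acted on each ring.

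**Figure D4:**
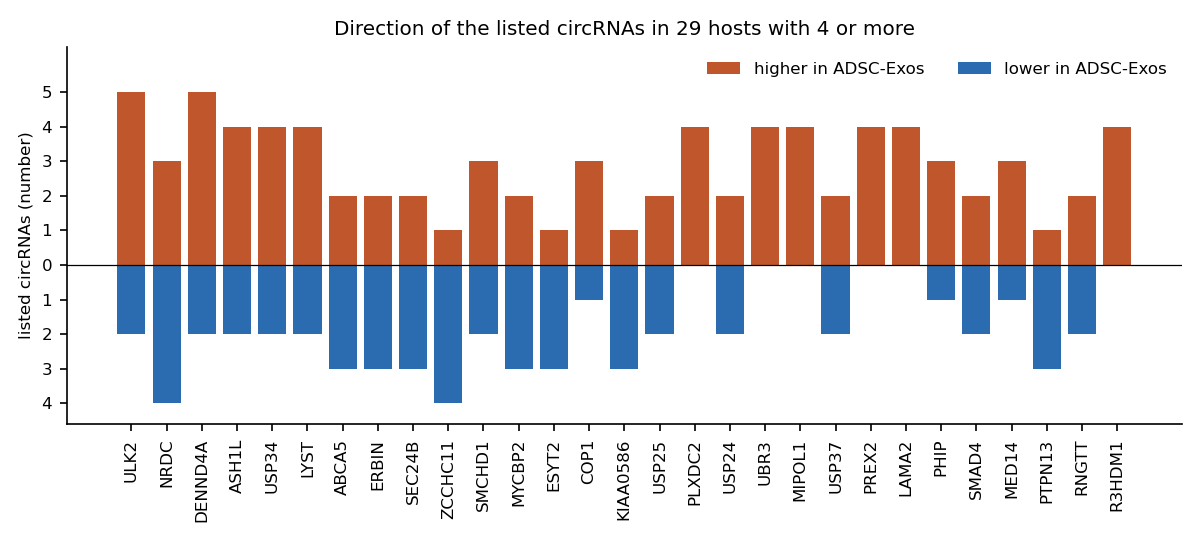
For each of 29 hosts with 4 or more listed circRNAs, bars above 0 count the rings higher in ADSC-Exos and bars below 0 the rings lower there. Most hosts have both, such as ULK2 (5 higher, 2 lower) and NRDC (3 higher, 4 lower), while 6 have only higher rings.

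No single ring passed the test between the arms. Limma, fitted across all 1694 circRNAs, called 0 of the 369 at an adjusted p under 0.05 (0.118% over the table), and the authors' deposited FDR called 0 as well. Without adjustment 66 rings had a p under 0.05 (34 higher, 32 lower), or 17.9% of the members. The table gave 16.7% at that threshold, 9.21% of circRNAs higher and 7.5% lower. In 30 of the 66 (45.5%) the arms did not overlap, against 54.8% of the 283 circRNAs of the table that pass the same threshold. With counts this low the median prior degrees of freedom were infinite. At that median limma took the standard error entirely from the trend over all circRNAs, and the rabbits' own spread did not enter. Leaving out any 1 rabbit made the median prior finite and gave 53 to 96 adjusted calls, the 96 without ADSC-Exos rabbit 1.

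The smallest p belonged to a ring of INO80, the ATPase of a chromatin-remodelling complex, on chromosome 17 from 31031962 to 31049326. It had 2, 3 and 3 reads in ADSC-Exos and none in control rabbits, a log2 difference of 2.67 (SE 0.72; adjusted p = 0.068). A ring of ENPP3, an ectonucleotide pyrophosphatase gene, followed on chromosome 12 from 121958679 to 121980186, with 1, 0 and 0 reads in ADSC-Exos and 4, 3 and 5 in control rabbits (log2 difference -2.56, SE 0.80; adjusted p = 0.11). Its arms did not overlap, and the ratio of normalized reads was 0.086 (95% interval 0.002 to 0.584). The kinectin gene's ring ending at 74333256 had no reads in ADSC-Exos and 3, 2 and 1 in control rabbits (log2 difference -2.22, SE 0.75; adjusted p = 0.12).

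A further 6 of the rings with the smallest p were equally sparse, at 5 to 10 reads. Higher ones were rings of MIPOL1 (3, 2 and 1 reads in ADSC-Exos, none in control), SEC24B, a vesicle-coat gene (4, 1 and 1, none), the phosphatase gene PTPN13 (1, 1 and 4, none), the lipid-transporter gene ABCA5 (3, 5 and 1, against 1, 0 and 0) and NF1 (2, 1 and 2, none). A lower one was a ring of ZC3H13, of the RNA adenosine methylation machinery (0, 1 and 0, against 4, 3 and 2). Of these 6, only the ring of ABCA5 had arms that met.

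The rings with the most reads had wider spread between rabbits. The leading one, of SPIDR, a scaffold gene of DNA repair, lies on chromosome 3 from 62135780 to 62138180 and had 2, 7 and 14 reads in ADSC-Exos and 2, 3 and 1 in control rabbits. Of its 29 reads 14 came from 1 animal, ADSC-Exos rabbit 3, and the arms overlapped (log2 difference 1.50, SE 1.13; adjusted p = 0.19). The intronic ring of ASH1L had 3, 8 and 4 reads in ADSC-Exos and 1, 2 and 2 in control rabbits, without overlap, a normalized read ratio of 3.11 (95% interval 1.08 to 10.9; adjusted p = 0.21). COP1, a ubiquitin ligase gene, had a ring on chromosome 13 from 3166594 to 3228270 with 3, 7 and 4 reads in ADSC-Exos and 1, 1 and 1 in control rabbits, a ratio of 4.84 (1.35 to 26.3; adjusted p = 0.12).

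Of the 10 rings with the most reads, 5 more had arms that overlapped, among them 1 of DSC3 that is described with the shared ends. A ring of DIP2B on chromosome 4 from 34762550 to 34764096 had 1, 6 and 4 reads in ADSC-Exos and 2, 1 and 0 in control rabbits. A ring of the deubiquitinase gene USP25 on chromosome 14 from 143726309 to 143774574 had 1, 3 and 7 against 2, 1 and 0. Both were higher in ADSC-Exos by the mean, through rabbits 2 and 3. Lower ones were a ring of ESYT2 on chromosome 13 from 8546240 to 8551166, with 2, 0 and 1 against 4, 5 and 2 reads, and one of ECPAS, a proteasome adaptor gene, on chromosome 1 from 1854229 to 1868783. The ECPAS ring had 0, 2 and 0 reads in ADSC-Exos and 8, 1 and 2 in control rabbits, most of them in control rabbit 1.

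Summing all listed rings of a host gave 1 value per gene and rabbit. Of the 106 host sums 62 were higher and 44 lower in ADSC-Exos. Their median log2 difference was 0.42, against 0.55 over all 1184 hosts. The arms did not overlap for 34 (32.1%), against 17.5% of all hosts and 31.1% of hosts with exactly 2 listed circRNAs. Limma on the sums of all 1184 hosts called 22 of the 106 (20.8%) at an adjusted p under 0.05, where 9.71% of all hosts and 21.7% of hosts with exactly 2 listed circRNAs were called. Among them 15 were higher and 7 lower (5.32% and 4.39% of all hosts). The share called was thus close to that of hosts with 2 rings.

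Several limits apply to these 22 calls. Limma took the standard errors of the sums largely from the trend over all hosts (median prior degrees of freedom 103, against 4 residual). The rabbits' own spread therefore entered little. The prior fell to between 0.42 and 1.30 when any 1 rabbit was left out. All 22 lie among the 31 hosts whose rings were listed in a single direction, and the authors chose the rings for their differences in these same rabbits, so the calls are not independent of that choice. With the size factors of the authors' mRNA table in place of those of the circRNA table none of the 22 was called (adjusted p from 0.059 to 0.11). Those factors are larger in every rabbit (0.890 to 1.18 against 0.454 to 0.510), so all values also became smaller beside the pseudocount of 1. With no size factor, which makes them smaller too, 18 sums were called. The change of scale and the change between rabbits were not tested apart. Without ADSC-Exos rabbits 1, 2 and 3 in turn there were 12, 8 and 10 calls, and without control rabbits 1, 2 and 3 there were 8, 9 and 11. PREX2, PTPN4, TRIP12, ARHGEF12 and ADAMTS6 (5 hosts) were called in all 6 of those fits.

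**Figure D5:**
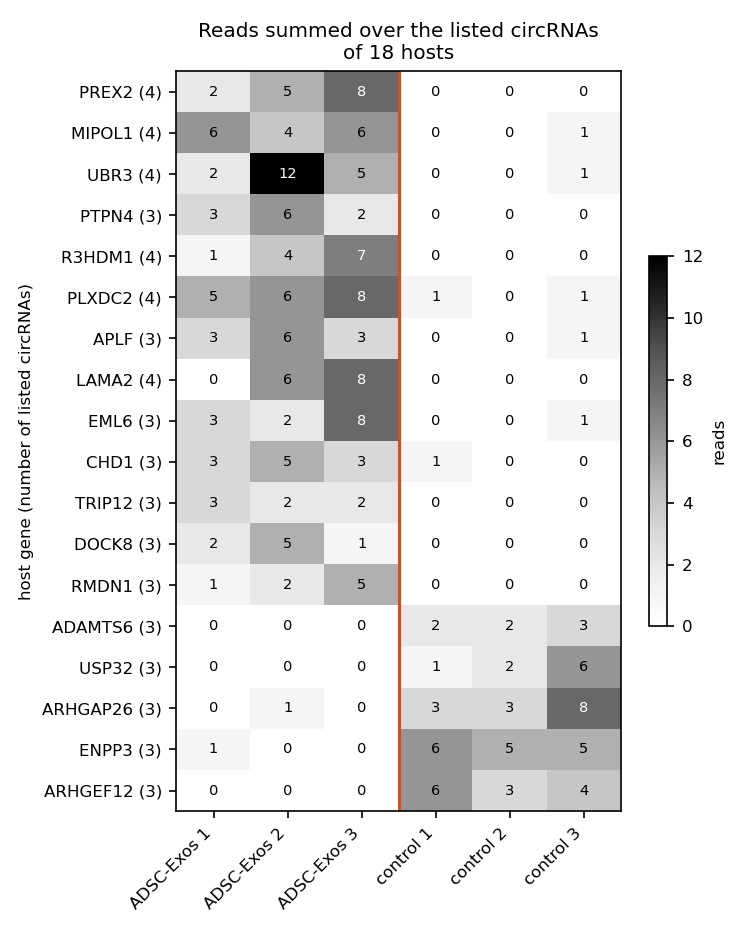
Rows are 18 of the hosts called by limma, with the number of listed circRNAs in brackets; each cell gives the reads summed over those circRNAs in 1 rabbit, with ADSC-Exos left of control. The first 13 hosts were higher in ADSC-Exos and the last 5 lower, and LAMA2 alone has arms that meet, through 0 reads in ADSC-Exos rabbit 1.

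Regulators of small GTPases, the switches that shape actin and cell movement, gave 4 called hosts, 2 in each direction, among 9 (28 rings, 14 higher and 14 lower). The groups by role, here and below, were made after the values were known, so their call counts are descriptions. For comparison, 20.8% of the 106 hosts and 9.71% of all 1184 hosts were called. PREX2 (ENSOCUG00000001781), which encodes an activator of Rac, had 2, 5 and 8 reads in ADSC-Exos and none in control rabbits, over 4 rings on chromosome 3 between 83897032 and 84095024. That is at least 1.69-fold higher against 3 reads per control rabbit (log2 difference 3.31, SE 0.84; adjusted p = 0.013). ARHGEF12 (ENSOCUG00000005196), an exchange factor for another such switch, showed the opposite, with no reads in ADSC-Exos and 6, 3 and 4 in control rabbits over 3 rings on chromosome 1 between 97496794 and 97577419. It was at least 1.39-fold lower (log2 difference -3.20, SE 0.83; adjusted p = 0.013). DOCK8, another exchange factor, had 2, 5 and 1 reads in ADSC-Exos rabbits and none in controls, and ARHGAP26, the gene of a GTPase-activating protein, had 0, 1 and 0 against 3, 3 and 8. The call on DOCK8 was lost in all leave-one-out fits but that without ADSC-Exos rabbit 3, and that on ARHGAP26 in all but that without ADSC-Exos rabbit 2. VAV3 and NF1 of this group are described among the hosts with separate rings in both directions.

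Hosts of the ubiquitin system, whose enzymes tag proteins for destruction or remove the tag, numbered 12 with 46 rings, 28 higher and 18 lower. The called hosts were 3 higher and 1 lower. TRIP12 (ENSOCUG00000016726), a ubiquitin ligase gene, had 3, 2 and 2 reads in ADSC-Exos and none in control rabbits over 3 rings on chromosome 7 between 171764296 and 171856277 (log2 difference 2.51, SE 0.68; adjusted p = 0.013). No fold is given, since the mean of ADSC-Exos does not exceed 3 reads. The ligase gene UBR3 had 2, 12 and 5 reads in ADSC-Exos and 0, 0 and 1 in control rabbits, and 8 of the 12 came from 1 ring (109648096 to 109664521 on chromosome 7). Its call was lost on leaving out any 1 of the 6 rabbits.

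The deubiquitinase gene USP32 was called lower, at 0 reads in ADSC-Exos and 1, 2 and 6 in control rabbits, a call kept only without control rabbit 1 or 3. Its relative USP34, with 6 listed rings, had 1, 4 and 10 reads in ADSC-Exos and 3, 2 and 5 in control rabbits, and the arms overlapped (log2 difference 0.22, SE 0.84; adjusted p = 0.82). The difference was -0.43 without ADSC-Exos rabbit 3 and -0.046 without control rabbit 2. COP1 had 3, 12 and 6 reads against 1, 2 and 2, without overlap, at a ratio of 4.36 (95% interval 1.60 to 14.8; adjusted p = 0.15).

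Genes of matrix, adhesion and the cytoskeleton included 14 hosts with 46 rings, 28 higher and 18 lower. LAMA2 (ENSOCUG00000009427), a laminin chain of basement membranes, had 4 rings on chromosome 12 between 118995991 and 119455536, with 0, 6 and 8 reads in ADSC-Exos and none in control rabbits. Its sum was at least 1.56-fold higher (log2 difference 2.58, SE 0.75; adjusted p = 0.016), but ADSC-Exos rabbit 1 had no read of any LAMA2 ring, and the call was kept only in the fit without that rabbit. ADAMTS6 (ENSOCUG00000001525), a secreted metalloprotease gene, had no reads in ADSC-Exos and 2, 2 and 3 in control rabbits over 3 rings on chromosome 11 between 81426084 and 81479593 (log2 difference -2.46, SE 0.67; adjusted p = 0.013). EML6 and RMDN1, both microtubule-associated, and the membrane protein gene PLXDC2 were called higher. PLXDC2 had 5, 6 and 8 reads in ADSC-Exos and 1, 0 and 1 in control rabbits (ratio 9.86, 95% interval 2.38 to 87.3), and its call was kept only without control rabbit 2. RMDN1, at 1, 2 and 5 reads against none, kept its call only without ADSC-Exos rabbit 1 or 3. The integrin gene ITGB8 missed the threshold, with 2, 11 and 5 reads against 1, 0 and 1 (adjusted p = 0.058).

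Kinase and phosphatase genes with SMAD4 made up 9 hosts with 33 rings, 20 higher and 13 lower. PTPN4 (ENSOCUG00000008364), a tyrosine phosphatase gene, had 3, 6 and 2 reads in ADSC-Exos and none in control rabbits over 3 rings on chromosome 7 between 63050668 and 63182068. It was at least 1.26-fold higher (log2 difference 2.97, SE 0.80; adjusted p = 0.013). ULK2, a kinase that starts autophagy and one of the 3 hosts with 7 rings, had 2, 9 and 9 reads in ADSC-Exos and 3, 1 and 6 in control rabbits, with overlap (adjusted p = 0.30).

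Chromatin and transcription genes formed the largest group, with 15 hosts and 53 rings, 30 higher and 23 lower. The called sums were 1 higher and 2 lower. The higher one was that of the remodeller gene CHD1, at 3, 5 and 3 reads in ADSC-Exos and 1, 0 and 0 in control rabbits, and its call was kept only in the fit without control rabbit 1. ASH1L had the most reads of any host, 5, 17 and 11 in ADSC-Exos and 2, 4 and 7 in control rabbits, at a ratio of 2.63 (95% interval 1.35 to 5.45) that limma did not call (adjusted p = 0.15).

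RNA processing and ribosome assembly was represented by 13 hosts with 42 rings, of which 16 were higher and 26 lower. Their rings summed to 17, 21 and 21 reads in ADSC-Exos and 40, 28 and 44 in control rabbits, so every control rabbit had more than any ADSC-Exos rabbit. No host of this group was called. MDN1, which acts in ribosome assembly, had 0, 0 and 1 reads against 4, 3 and 3 (adjusted p = 0.058). ZCCHC11, which adds uridines to RNA ends, had 4, 1 and 0 against 5, 4 and 8 over 5 rings (adjusted p = 0.14). The grouping by role was made after the values were known, so this sum is a description without a test.

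Membrane traffic and lipid transport gave 12 hosts with 48 rings, 23 higher and 25 lower, and no call. DENND4A, an activator of Rab GTPases with 7 rings, had 2, 5 and 9 reads in ADSC-Exos and 0, 3 and 2 in control rabbits (adjusted p = 0.15). LYST, a regulator of lysosomes, had 5, 8 and 4 against 1, 3 and 1 without overlap (ratio 3.53, 95% interval 1.25 to 12.2; adjusted p = 0.15). ESYT2, which tethers the endoplasmic reticulum to the cell membrane, had 3, 4 and 1 against 11, 7 and 3 (adjusted p = 0.19). ABCA5 and SEC24B, with 5 rings each, had 3, 7 and 2 against 7, 5 and 2 and 5, 4 and 3 against 2, 6 and 2 reads, and their arms overlapped. The log2 difference of ABCA5, -0.17, was 0.20 without ADSC-Exos rabbit 3 and 0.17 without control rabbit 1.

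The smaller groups gave the other calls. APLF, a factor of DNA end joining, had 3, 6 and 3 reads in ADSC-Exos and 0, 0 and 1 in control rabbits, and SPIDR, with 2, 9 and 15 against 2, 4 and 2, was not called. All 4 hosts of DNA repair and cell death had higher sums, with 9 of 12 rings higher. MIPOL1, among 6 hosts of centrosome and cilium, had 6, 4 and 6 reads in ADSC-Exos and 0, 0 and 1 in control rabbits (ratio 16.6, 95% interval 2.58 to 696; adjusted p = 0.015). KIAA0586, of the same group and needed to build cilia, had 2, 7 and 2 against 3, 4 and 6 (adjusted p = 0.74). Among the 9 other named hosts ENPP3 was called lower, at 1, 0 and 0 reads against 6, 5 and 5, and R3HDM1 higher, at 1, 4 and 7 against none (at least 1.35-fold). The calls on APLF and MIPOL1 were kept only without control rabbit 3, those on ENPP3 and R3HDM1 only without ADSC-Exos rabbit 1, and that on EML6 in no leave-one-out fit. The 3 hosts without a symbol had 9 rings, 5 higher and 4 lower, and no call. Over all 106 hosts the summed reads ranged from 6 to 46.

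In 4 hosts (3.77%) a higher and a lower ring each had arms that did not overlap, while the arms of the host sum overlapped. Among the 235 hosts with exactly 2 listed circRNAs 3 (1.28%) had a separate ring in each direction. Of the 4 hosts, the one with the most reads was VAV3 (ENSOCUG00000000172), a guanine nucleotide exchange factor gene, where the rings leave the same start at 56410148. The ring ending at 56429422 had 4, 4 and 7 reads in ADSC-Exos and 1, 2 and 0 in control rabbits (log2 difference 2.15, SE 0.94; adjusted p = 0.12). The ring ending at 56480505 had none in ADSC-Exos and 1, 4 and 1 in control rabbits (adjusted p = 0.12). The remaining ring, ending at 56522822, had 4 reads in ADSC-Exos rabbit 3 and none elsewhere. The sum of the host was 4, 4 and 11 against 2, 6 and 1 reads, with overlap (log2 difference 1.13, SE 0.83; adjusted p = 0.21).

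INO80 (ENSOCUG00000010763) held the higher ring described with the smallest p and a lower one from 30991717 to 31034721, with no reads in ADSC-Exos and 2, 1 and 2 in control rabbits. Their spans overlap by a few kilobases, and the sum of all 3 rings was 2, 4 and 7 against 3, 1 and 2 reads (adjusted p = 0.31). NF1 (ENSOCUG00000008567), a brake on RAS, had its higher ring on chromosome 19 from 20752847 to 20770005. Its lower ring, from 20945991 to 20952904, had 1, 0 and 0 reads in ADSC-Exos and 3, 2 and 2 in control rabbits. ERBIN (ENSOCUG00000003795), a scaffold that binds ERBB receptors, had 3, 3 and 3 reads against 1, 1 and 1 for its ring on chromosome 11 from 82179151 to 82190076. Its ring from 82109802 to 82127233 had none in ADSC-Exos and 1 read in each control rabbit. Sums of NF1 (3, 2 and 4 against 3, 2 and 2 reads) and ERBIN (4, 5 and 4 against 2, 4 and 4) overlapped. These 4 hosts rest on few reads, and leaving out 1 rabbit, which makes overlap rarer, gave 7 to 16 such hosts.

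Rings that met at a shared start or end differed in direction in 43 of 105 pairs. Besides VAV3, the pairs with the most reads were in DSC3, ERBIN, SLK and NRDC. In DSC3, which encodes a desmosomal cadherin, the ring on chromosome 9 from 72265513 to 72280026 had 3, 1 and 7 reads in ADSC-Exos and 0, 2 and 0 in control rabbits. The ring from the same start to 72284360 had none against 1, 0 and 1. In the kinase gene SLK, rings on chromosome 18 that ended at 51934232 had 2, 2 and 2 against 0, 1 and 0 reads when begun at 51928187, and 0, 1 and 0 against 0, 1 and 5 when begun at 51929951.

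In NRDC (ENSOCUG00000004330), the gene of the protease nardilysin, the 4 rings from start 114865179 split 1 to 3. The ring ending at 114885565 had 1, 1 and 3 reads in ADSC-Exos and 0, 1 and 0 in control rabbits. Those ending at 114883800, 114891014 and 114893426 had none in ADSC-Exos and 0, 2 and 4, then 0, 1 and 1, then 0, 1 and 2 in control rabbits. Control rabbit 1 had no read of any of the 4. Over all 7 rings the sum was 2, 4 and 4 against 1, 7 and 9 reads (log2 difference -0.31, SE 0.84; adjusted p = 0.75), and the difference was 0.014 without control rabbit 2 and 0.18 without control rabbit 3.

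Gene lists for scar and circRNA biology touched few of these hosts. Of 20 factors that act on circRNA formation none was a member. Of 29 genes often reported to give circRNAs 11 had a listed ring and 3 were members (BIRC6, ASPH and PICALM), with 5 rings higher, 4 lower and 0 adjusted calls. Of 34 scar matrix genes 4 had a listed ring and LAMA2 was a member, with all 4 rings higher. Of 25 genes of the TGF-beta pathway 5 had a listed ring. The only member was SMAD4 (ENSOCUG00000003929), the common partner of receptor-activated SMADs, with 2 rings higher, 2 lower and sums of 1, 1 and 3 against 1, 2 and 5 reads (adjusted p = 0.67).

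Of 47 chromatin regulators 16 had a listed ring, and the members INO80, CHD1, EZH2 and KMT2C had 9 rings higher and 3 lower (median log2 difference 1.07, against 1.04 for all listed circRNAs). Of 31 ubiquitin ligases and related genes 17 had a listed ring. Their 8 members (USP34, MYCBP2, USP25, USP24, UBR3, BIRC6 and TRIP12 among them) had 22 rings higher and 10 lower, with a median of 1.08 and 3 called sums. Of 40 actin, myosin and adhesion genes 11 had a listed ring and UTRN was the only member (1 higher, 2 lower). No ring of any of the 3 lists had an adjusted p under 0.05. Markers of fibroblasts, keratinocytes, endothelium, macrophages, muscle, cartilage and nerve had no member, so these rings do not check the labelled tissue.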

How the data were processed

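RNA of 6 scars, 1 library per rabbit, was processed by the authors. The submitters' processing notes name DESeq2 1.30.1, STAR 2.7.6a, HTSeq 2.0.3, FastQC 1.0.0 and Trimmomatic 0.40 without roles, and the circRNA caller and genome build are not given in the sources used here. The authors' deposited log2 values are log2(reads/size factor + 1). In each rabbit the smallest step between deposited values was taken as 1 read. On that unit 100% of values were whole within a tolerance of 0.01. The check would pass as well if every count were off by a common factor. Size factors so obtained were 0.454 to 0.510, against 0.890 to 1.18 for the mRNA table. The unit was not verified, and the read counts, the limit of 3 reads and the ratio intervals depend on it. The table also holds the authors' deposited p-values and FDR, from a test it does not name. The 12 rows without a gene were left out of the members. Total library depth is unknown, since only selected circRNAs are listed.

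Limma 3.58.1 (R 4.3.3, trend and robust, ADSC-Exos minus control) was fitted to the log2 values of all 1694 circRNAs and to log2(summed normalized reads + 1) of all 1184 hosts, with a pseudocount of 1, Benjamini-Hochberg adjustment and a threshold of 0.05. The fits used the deposited log2 scale, and no count test was run on the recovered reads. Per-rabbit measures were compared by exact two-sided permutation tests (SciPy 1.17.1). The limma step was also run on simulated counts. They lacked the authors' selection of circRNAs by arm difference, so that run does not check the calls on these data. Ratio intervals are exact binomial and pool the rabbits of an arm. "Arms do not overlap" means that all values of one arm exceed all of the other. Each rabbit is a separate animal.

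The members and lists were chosen with earlier results of these data known. Named hosts are the 10 with most listed circRNAs, the 10 with most reads and the 10 with the smallest p, and named circRNAs are the 10 with the smallest p, the 10 with most reads and the 5 shared-end pairs of opposite direction with most reads, plus members of the lists. Some hosts and rings that met these rules are not reported here. The other called hosts that are named, the hosts with separate rings in both directions, those with rings at a common end, and those with a role described were named after their values were seen, as were the roles. Alternatives were other pseudocounts, size factors, filters, limma options, host cutoffs, a replicate block and leaving out each rabbit. Same-numbered rabbits had correlations of deviations of -0.046, -0.054 and -0.022. Most listed circRNAs had reads only in ADSC-Exos or only in control rabbits, so their values in the other arm did not vary. The correlations therefore cannot decide whether the numbers pair the rabbits.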

Additional observations from a re-analysis of the deposited data

How the results depend on the processing

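At a median of 3 reads per ring, low read counts limit every result here, and host sums relieve that only in part. Adjusted calls among the 369 rings, 0 as reported, were 20 with a pseudocount of 0.1, 2 with no size factor, 1 among the 119 rings with 5 or more reads, 24 without the trend and robust options, and 53 to 96 without 1 rabbit. They stayed at 0 with a pseudocount of 0.01, the mRNA table's size factors, quantile normalization and the replicate block. At an unadjusted p under 0.05 the count of rings, 66 as reported, was 43 and 36 with pseudocounts of 0.1 and 0.01 (32 and 28 of them among the 66), 47 with the replicate block (42 among them) and 70 to 112 without 1 rabbit (25 to 37 among them). Called host sums, 22 as reported, were 11 with either smaller pseudocount and 17 with the replicate block (12 higher, 5 lower), all among the 22. They were 32 when only hosts with 3 or more rings were fitted and adjusted (19 higher, 13 lower, including the 22), 0 with the mRNA table's size factors, 9 of the 19 hosts left by a filter at 10 normalized reads (5 among the 22) and 8 to 12 without 1 rabbit (6 to 10 among the 22). Without ADSC-Exos rabbit 2 those were 3 higher and 5 lower. Quantile normalization gave 24 (14 higher, 10 lower) against 15 and 7 as reported, and moved the median of all hosts to 0.38, from 0.55 as reported and 0.42 with no size factor. At an unadjusted p the count of sums, 35 as reported, was 23 with a pseudocount of 0.01, 12 with the filter and 30 to 36 without 1 rabbit. The filter tests fewer features, and the mRNA table's size factors also make all values smaller beside the pseudocount. What caused the changes was not tested.

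The difference in the share of reads, 0.67 percentage points, was -1.03 when hosts with 2 rings were included, -0.13 over rings with 5 or more reads and 0.26 to 1.22 without 1 rabbit. The difference in read-weighted span, -45.3 bases, was 1983 bases over rings with 5 or more reads and -1370 to 1045 without 1 rabbit. It was also above 0 without ADSC-Exos rabbit 3 (189) and control rabbit 1 (894). The leading-ring difference ran from 1.94 to 3.41 and that of rings with reads from 3.67 to 36.7 without 1 rabbit. Hosts with both directions, 75 of 106, were 16 of 34 when only rings with 5 or more reads were kept and 73 to 75 without 1 rabbit. Hosts with separate rings in both directions, 4 as reported and 4 with no size factor, were 7 to 16 without 1 rabbit; that count, and leaving out a rabbit for both direction counts, were added after seeing the data. Of the named hosts and rings, the sign turned for NRDC (0.014 and 0.18, with a range of -1.14 to 0.18), USP34 (-0.43 and -0.046, range -0.43 to 0.92) and ABCA5 (0.20 and 0.17, range -0.62 to 0.20) without 1 rabbit. Among the other comparisons 641 kept their side of the threshold, 33 lost and 56 gained a call.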
